A study of Plutella xylostella with 12 samples.

Results

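The miR-14 family of the diamondback moth *Plutella xylostella* was represented by 4 of the 105 microRNA (miRNA) names found in small RNA libraries of whole larvae. These are both arms of 2 copies: pxy-mir-14a-3p, pxy-mir-14a-5p, pxy-mir-14b-3p and pxy-miR-14b-5p. They were taken by name, whatever their values, and the counts of all rows that carry a name were added up. All but pxy-mir-14a-5p were listed in each of the 12 libraries, and pxy-mir-14a-5p was listed in 10.

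A miRNA is cut from a hairpin precursor whose 2 strands give a 5p and a 3p product, and usually 1 strand is loaded into Argonaute, where it pairs with messenger RNAs through its seed. In *Drosophila* the mature miR-14 comes from the 3p strand. There it limits cell death and fat storage and acts on the ecdysone receptor, the switch of moulting and metamorphosis, and it works in insulin-producing neurosecretory cells. These roles are background for the 3p arms and were not tied here to the 5p arms or to this moth.

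All larvae were 3rd instar, of the Waite strain, which is susceptible to insecticides, and all had survived exposure to chlorantraniliprole, a diamide that opens the ryanodine receptor of muscle. The low dose was 0.01 ppm and the high dose 0.1 ppm, and larvae were taken after 6 h or 24 h, with 3 libraries per dose and time. Unexposed larvae were not analysed here, so every comparison is between exposed groups, and larvae that died are not represented. The study asked how larval miRNAs respond to this exposure.

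Library totals ran from 10714 to 41214 counts, over 59 to 90 listed names, and no row held fewer than 5 counts. A name that a library does not list is therefore not a measured 0. The muscle miRNA pxy-mir-1-3p and the midgut-rich pxy-miR-281-5p were listed in all 12 libraries, whereas no name of the neuronal miR-124 or of miR-133 was listed in any. Since whole bodies were sequenced, fewer cells of a type and less RNA per cell cannot be told apart in any value below. Levels are given in CPM, counts scaled to a common library size with trimmed mean of M-values (TMM) factors. They are per name and are not adjusted for length.

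The 4 names together took 2.64% to 3.80% of a library, 344 to 1460 counts. In every library that listed all 4, they stood in the same order. The most abundant, pxy-mir-14a-3p, took 2.02% ± 0.27 (SD, n = 12) of the counts and ranked between 11 and 13 among the names of a library. Next came pxy-mir-14b-3p with 1.03% ± 0.13 and ranks of 15 to 20. The 5p arm of the same copy, pxy-miR-14b-5p, took 0.17% ± 0.09 and ranked 29 to 46, and pxy-mir-14a-5p took 0.046% ± 0.019 in the 10 libraries that listed it. The arm of the known *Drosophila* product thus led in both copies, by a wide margin in 14a and a narrower one in 14b.

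**Figure D1:**
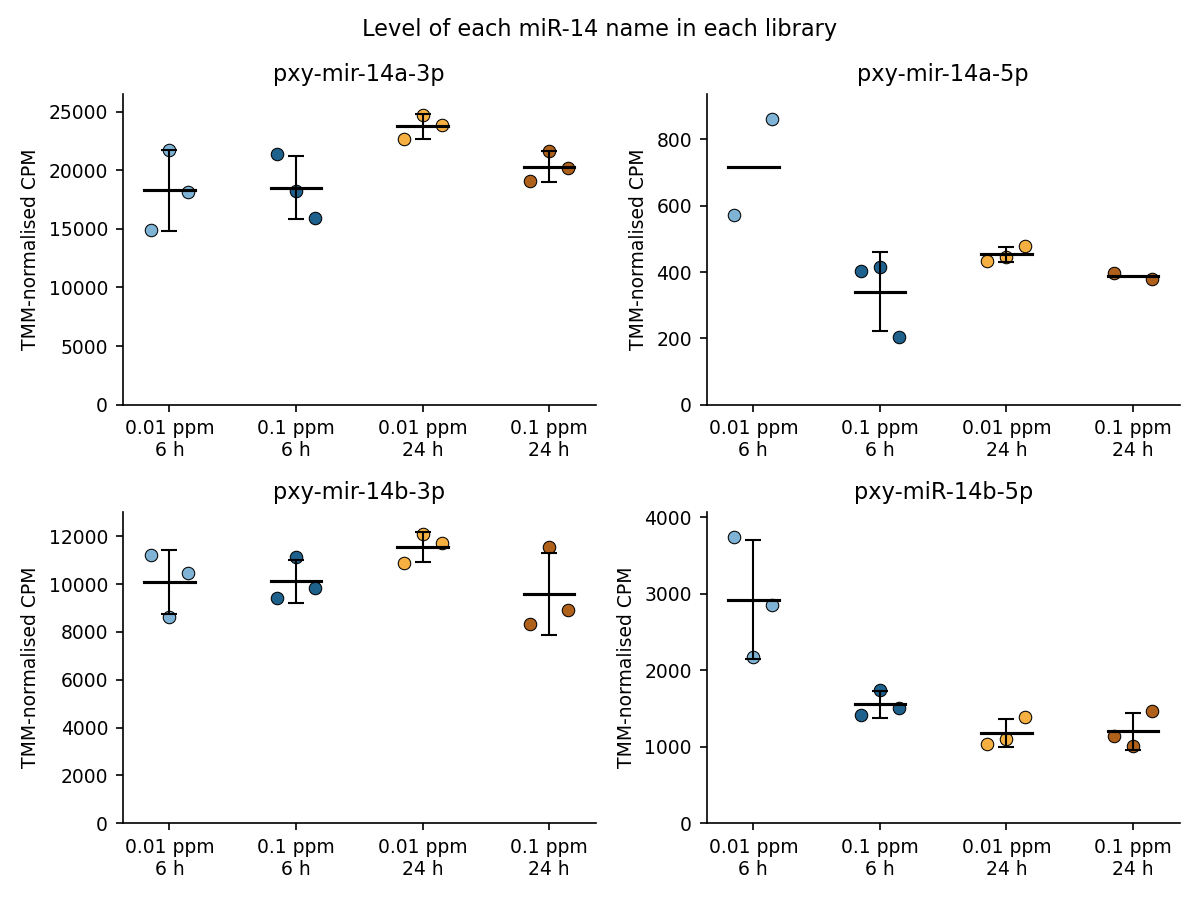
TMM-normalised CPM of each miR-14 name (vertical axis, linear from 0) in the 4 groups of dose and time; points are libraries, bars the group mean and whiskers 1 SD where 3 libraries list the name. Levels of pxy-miR-14b-5p were 2175 CPM or more in the 3 low-dose libraries at 6 h and 1745 CPM or less in the other 9, whereas for both 3p arms the low-dose and high-dose libraries at 6 h overlapped.

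The minor arm of 14b, pxy-miR-14b-5p, passed the test in more comparisons than any other member, all of them including the low-dose libraries at 6 h. After 6 h at the low dose its level was 3734, 2175 and 2854 CPM in replicates 1 to 3, from 23 counts in replicate 2, 63 in replicate 3 and, in replicate 1, the most of any library. After 24 h at the same dose it was 1040.5, 1103 and 1383 CPM, from 36, 42 and 52 counts. The 2 groups did not overlap, and the lowest 6 h library stood above the highest 24 h library.

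Between these times pxy-miR-14b-5p fell 2.57-fold (log2 -1.36 ± 0.23 SE). Its p in edgeR's quasi-likelihood test, adjusted by Benjamini-Hochberg over the 73 tested names, was 0.000582. It had the smallest p and the lowest fold change of all 73. In this comparison 14 names passed, 19.2% of those tested, and 2 of the 4 members did, 1 lower and 1 higher. The median over all tested names was 0.07 and the range from the 5th to the 95th percentile was -0.80 to 1.18. This call was also made under each of the 9 other settings (-1.88 to -1.34) and in each of the 12 fits that left out 1 library (-1.62 to -1.21). Total counts moved with time, from 10714 to 30676 in the low-dose libraries at 6 h and from 37741 to 41214 at 24 h, and the part of depth in the fall was not tested.

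At the high dose pxy-miR-14b-5p was at 1410.5, 1745 and 1502 CPM after 6 h, from 28, 42 and 37 counts. After 24 h it stood at 1135, 1003 and 1470 CPM, from 33, 38 and 66 counts. These groups overlapped, as replicate 3 at 24 h lay above replicate 1 at 6 h. The difference was -0.36 ± 0.24 on the log2 scale and did not pass (adjusted p = 0.437, edgeR). No member passed here, in a comparison in which 5 names did, 6.85% of those tested.

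Between doses at 6 h, the 3 high-dose libraries lay below the 3 low-dose libraries for pxy-miR-14b-5p, without overlap. Its log2 difference was -0.96 ± 0.23 SE (adjusted p = 0.0437, edgeR), and it was the 1 name called, 1.37% of those tested. The call lies close to the threshold. It was made in 4 of 9 other settings and in 4 of 12 fits without 1 library, and without low-dose replicate 1, which held the highest level, the value was -0.73 (adjusted p = 0.305). DESeq2 gave -0.93 (adjusted p = 0.0855). After 24 h the doses overlapped for this arm, with means of 1176 ± 182 (SD, n = 3) and 1203 ± 241 CPM and a log2 difference of 0.04 ± 0.24.

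In order of mean level, the low dose at 6 h was thus highest for pxy-miR-14b-5p at 2921 ± 781 CPM (SD, n = 3), followed by the high dose at 6 h at 1552 ± 173 CPM and the 2 groups of 24 h. The high dose at 6 h and the low dose at 24 h, which differ in both factors, were not compared, and each of these groups overlapped with the high dose at 24 h. The dose difference at 24 h less that at 6 h was 1.00 ± 0.33, with an adjusted p of 0.0649 (edgeR interaction term) that did not pass. It passed in 5 of 8 other settings, among them relative log expression factors (1.10, adjusted p = 0.0424) and library totals (1.37, adjusted p = 0.0165). Without 1 library it ran from 0.82 to 1.22 and passed in 3 of 12 fits. Of all names tested for this difference 6 passed, 8.22%, and none of the 4 members.

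**Figure D2:**
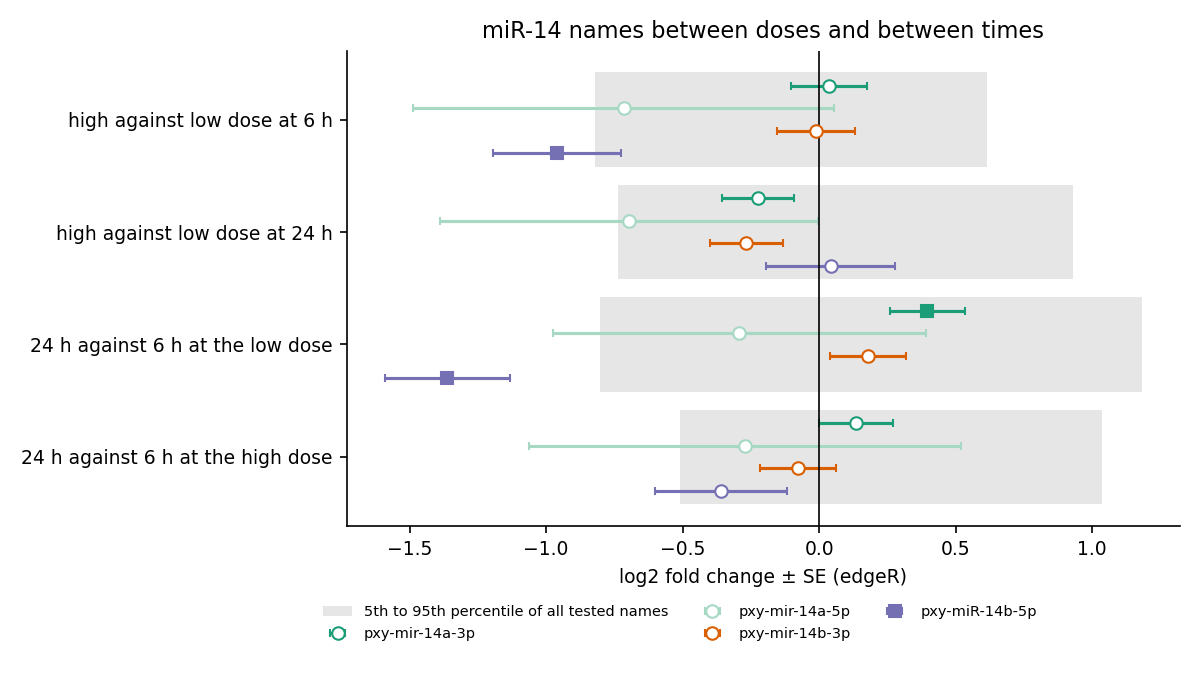
Log2 fold changes (horizontal axis) with their SE for the 4 names in the dose comparison at each time and the time comparison at each dose; filled squares passed an adjusted p of 0.05, open circles did not, and grey bands span the 5th to 95th percentile of the 73 tested names. Levels of pxy-miR-14b-5p lay below the band at 6 h between doses (-0.96) and at the low dose between times (-1.36), and the 3p arms lay within it, between -0.27 and 0.40.

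The differences of the 3p arms were smaller. For pxy-mir-14b-3p, the partner strand of the arm just described, the low-dose libraries of 6 h held 11201, 8606 and 10465 CPM, and those of 24 h held 10867, 12081 and 11728 CPM. High-dose larvae had 9419.8, 11135 and 9823 CPM after 6 h. Their level after 24 h was 8321, 11537 and 8933 CPM. All 4 groups overlapped with at least 1 other. The largest of its 4 log2 differences between doses at a time or times at a dose was -0.27 ± 0.14 SE, between doses at 24 h (adjusted p = 0.209, edgeR). Without 1 library that value ran from -0.42 to -0.091, and it passed in 1 of these 12 fits. The lowest was without high-dose replicate 2 at 24 h (adjusted p = 0.033), and the values nearest 0 came with low-dose replicate 2 (-0.091) or high-dose replicate 1 (-0.11) of 24 h left out. With upper quartile factors, which moved the median of all names from -0.16 to 0.21, it was 0.10.

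For pxy-mir-14a-3p the low-dose libraries of 6 h held 14904, 21752 and 18167 CPM, and those of 24 h held 22631, 24713 and 23855 CPM. The lowest value at 24 h was above the highest at 6 h, and the rise of 0.40 ± 0.14 on the log2 scale passed narrowly (adjusted p = 0.0488, edgeR). That call was made in 1 of 9 other settings (adjusted p = 0.0494 to 0.326) and in 2 of 12 fits without 1 library. Over these fits the value ran from 0.18, without low-dose replicate 1 at 6 h, to 0.48. At the high dose the level was 21358, 18240.4 and 15953 CPM after 6 h, overlapping with the 19083, 21674 and 20160.2 CPM of 24 h (0.14 ± 0.14, adjusted p = 0.652). Between doses its values were 0.04 ± 0.14 at 6 h and -0.22 ± 0.13 at 24 h, and neither passed. Of the 4 members none passed between doses at 24 h, where 12 names did, 16.4% of those tested.

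The rarest arm, pxy-mir-14a-5p, was listed with 19 counts each in low-dose replicates 1 and 3 at 6 h, and replicate 2, the shallowest library, did not list it. High-dose larvae of 6 h gave 8, 10 and 5 counts of it, and low-dose larvae of 24 h gave 15, 17 and 18. High-dose replicates 2 and 3 at 24 h held 15 and 17 counts, and replicate 1 did not list it. Where it was listed, the highest levels were those of low-dose replicates 1 and 3 at 6 h, 572 and 861 CPM. The other 8 libraries that listed it held 203 to 479 CPM. Replicate 2 of the low dose at 6 h has no measured level to set beside these. The fit takes an unlisted name as 0. Between doses the log2 values were -0.72 ± 0.77 SE at 6 h, -0.70 ± 0.69 at 24 h and -0.71 ± 0.52 on average, the last 2 further from 0 than those of pxy-miR-14b-5p. Between times they were -0.29 ± 0.68 for low-dose and -0.27 ± 0.79 for high-dose larvae. None of these passed.

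Averaged over both times, no member passed between doses, where 10 names did, 13.7% of those tested. The nearest was pxy-miR-14b-5p at -0.46 ± 0.17 (adjusted p = 0.0666, edgeR). Averaged over both doses, 1 member passed between times, where 8 names did, 11.0% of those tested. That was pxy-miR-14b-5p, which fell 1.82-fold (-0.86 ± 0.17, adjusted p = 0.00399), again with the smallest p of all names. This average takes in the fall at the low dose, so it is not an independent result. The same average for pxy-mir-14a-3p was 0.27 ± 0.10 (adjusted p = 0.0745).

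Within a library the arms can be compared without any scaling between libraries. The 5p arm made up 25.0%, 20.2% and 21.4% of the 14b counts in the low-dose libraries at 6 h (95% exact binomial intervals 21.2% to 29.1%, 13.2% to 28.7% and 16.9% to 26.6%). In the high-dose libraries at 6 h it made up 13.0%, 13.5% and 13.3%, with an interval of 8.83% to 18.3% for the first. At 24 h it made up 8.74%, 8.37% and 10.5% at the low dose and 12%, 8.0% and 14.1% at the high dose. The 3 low-dose libraries at 6 h were above all other 9. Intervals cover counting error only, since reads without molecular identifiers are not independent molecules.

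Put as a ratio, the 14b copy held 3.54 ± 0.49 (SD, n = 3) times as many 3p as 5p counts after 6 h at the low dose. The ratio was 6.53 ± 0.15 after 6 h at the high dose, 9.96 ± 1.31 after 24 h at the low dose and 8.30 ± 2.84 after 24 h at the high dose. On the log2 scale it was 0.89 higher at 24 h than at 6 h on average over doses. The exact two-sided permutation p, over regroupings within each dose, was 0.02, and 0.12 after adjustment over the 8 tests of this kind, which does not pass. Without 1 library the difference ran from 0.76 to 0.99, and it passed in 1 of these 12 cases, without high-dose replicate 3 at 24 h (adjusted p = 0.04 by the same exact permutation test). Between doses the ratio differed by 0.29 on the log2 scale (exact permutation p = 0.265, adjusted p = 0.349).

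The 14a copy had the more one-sided arms. Its 5p arm made up 3.70% and 4.52% of the 14a counts in the 2 low-dose libraries at 6 h that listed it, with intervals of 2.24% to 5.71% and 2.75% to 6.97%. In the other 8 libraries that listed it, it made up 1.26% to 2.23%. The third low-dose library at 6 h, replicate 2, held 230 counts of pxy-mir-14a-3p and did not list the 5p arm. As no row under 5 counts is listed, 1 unlisted row allows it a share of at most 1.71%, which is within the range of the other groups. High-dose replicate 1 at 24 h is allowed at most 0.716% in the same way. The 14a values rest on 5 to 19 counts of the 5p arm. The log2 ratio of 3p to 5p was 0.66 higher at the high than at the low dose on average over times (exact permutation p = 0.03, adjusted p = 0.12, 10 libraries) and 0.54 higher at 24 h than at 6 h (exact permutation p = 0.1, adjusted p = 0.267). Neither passed. The mean log2 ratio was 4.55 in the 2 low-dose libraries at 6 h. It was 5.83 for the high dose at 6 h, 5.71 for the low dose at 24 h and 5.75 for the high dose at 24 h. The 2 libraries that did not list the 5p arm gave no ratio. Under the limits above, leaving them out lowers the means of the low dose at 6 h and the high dose at 24 h.

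**Figure D3:**
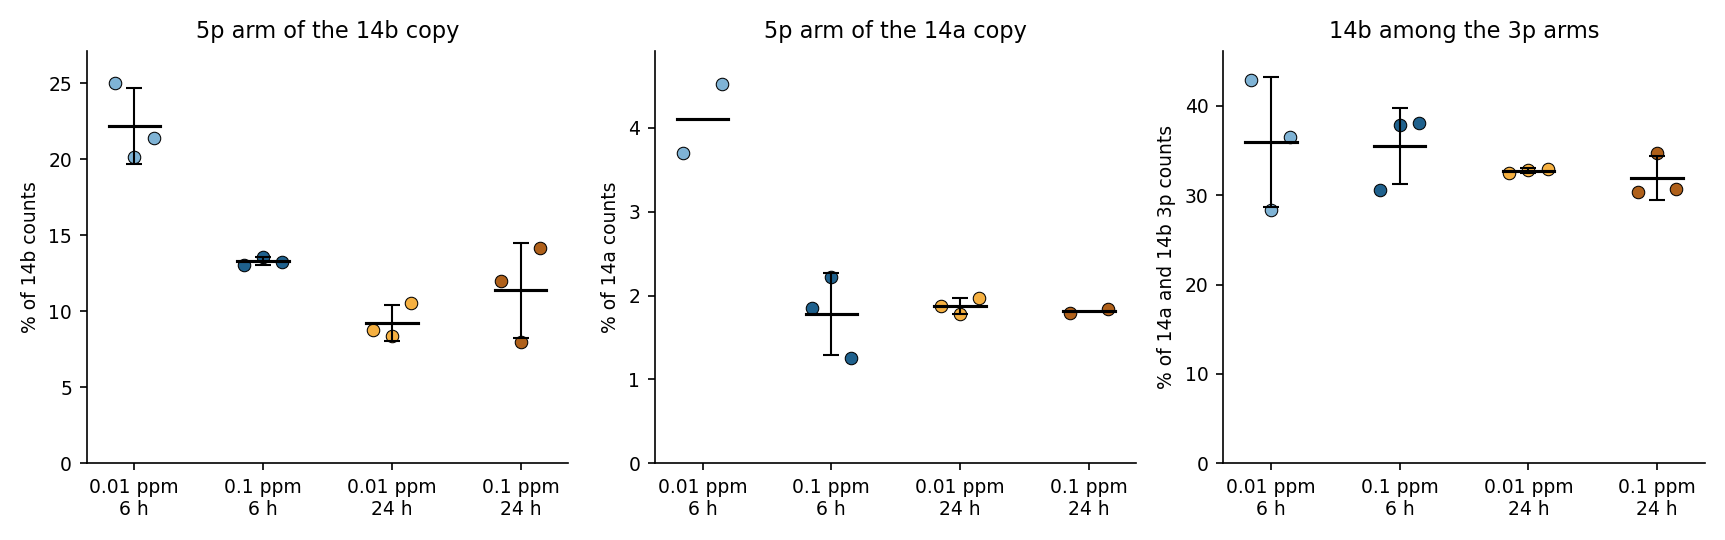
Share of the 5p arm in the counts of the 14b copy (left) and of the 14a copy (middle), and share of 14b in the summed 3p counts (right), in percent, by dose and time; points are libraries, bars means and whiskers 1 SD where 3 libraries have a value. The 5p share of 14b was 20.2% to 25.0% at the low dose after 6 h and 8.0% to 14.1% in the other groups, and that of 14a was 3.70% and 4.52% in the 2 low-dose 6 h libraries that listed it, against 1.26% to 2.23%.

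Between the copies, pxy-mir-14a-3p exceeded pxy-mir-14b-3p in 12 of 12 libraries, 1.33-fold to 2.53-fold. The 14b share of the 3p counts was 42.9%, 28.3% and 36.6% in the low-dose libraries at 6 h and 30.6%, 37.9% and 38.1% in the high-dose libraries. At 24 h it was 32.4%, 32.8% and 33.0% at the low dose and 30.4%, 34.7% and 30.7% at the high dose. The exact binomial intervals of the first 2 libraries, 39.6% to 46.3% and 23.5% to 33.6%, did not meet. The log2 ratio of 14b to 14a differed by -0.04 between doses (exact permutation p = 0.79, adjusted p = 0.79) and by -0.21 between times (p = 0.24, adjusted p = 0.349, by the same exact permutation). In the 5p arms the order of the copies was the opposite, with more 14b than 14a in each of the 10 libraries that listed both.

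How reads that match both copies were assigned is not stated, so the counts of both copies were also summed for each arm, a step chosen after the counts were seen. The summed 5p arms fell between times at the low dose (log2 -1.25 ± 0.24, adjusted p = 0.00208, edgeR). Their difference between doses at 6 h was -0.93 ± 0.25 and no longer passed (adjusted p = 0.0898). The summed 3p arms differed by 0.21 ± 0.12 between times at the low dose and did not pass (adjusted p = 0.238), a smaller value than that of pxy-mir-14a-3p alone.

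A library can give 1 name in several rows, and neither the labels nor the files say how these rows differ. For both 3p arms 1 row dominated in a steady way. The highest row held 73.8% to 82.0% of the counts of pxy-mir-14a-3p over 5 or 6 rows, and 75.2% to 82.2% of those of pxy-mir-14b-3p over 4 or 5 rows. The arm pxy-mir-14a-5p had 1 row in each library that listed it.

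For pxy-miR-14b-5p the rows were divided differently in 1 group. The highest row held 63.9%, 64.3% and 75.0% of its counts in the low-dose libraries at 24 h, and a single further row held the remaining 13, 15 and 13 counts. In the other 9 libraries the highest row held 82.1% to 100%, and no further row exceeded 7 counts. The 95% exact binomial intervals were 46.2% to 79.2%, 48.0% to 78.4% and 61.1% to 86.0% in the first 3, and those of the other 9 began at 63.1% to 94.3%, so some overlapped. This pattern was noticed in the counts and not tested. With as few as 23 counts in those 9 libraries and rows under 5 counts not listed, small further rows could be missing from the shallower of them. Counted by its highest row alone, this arm fell by 1.88 on the log2 scale between times at the low dose (adjusted p = 1.63e-05, edgeR), against 1.36 for the sum. The larger value carries the lower highest-row share at 24 h described above, and rows could not be matched between libraries. It is therefore no separate result of a stronger fall.

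**Figure D4:**
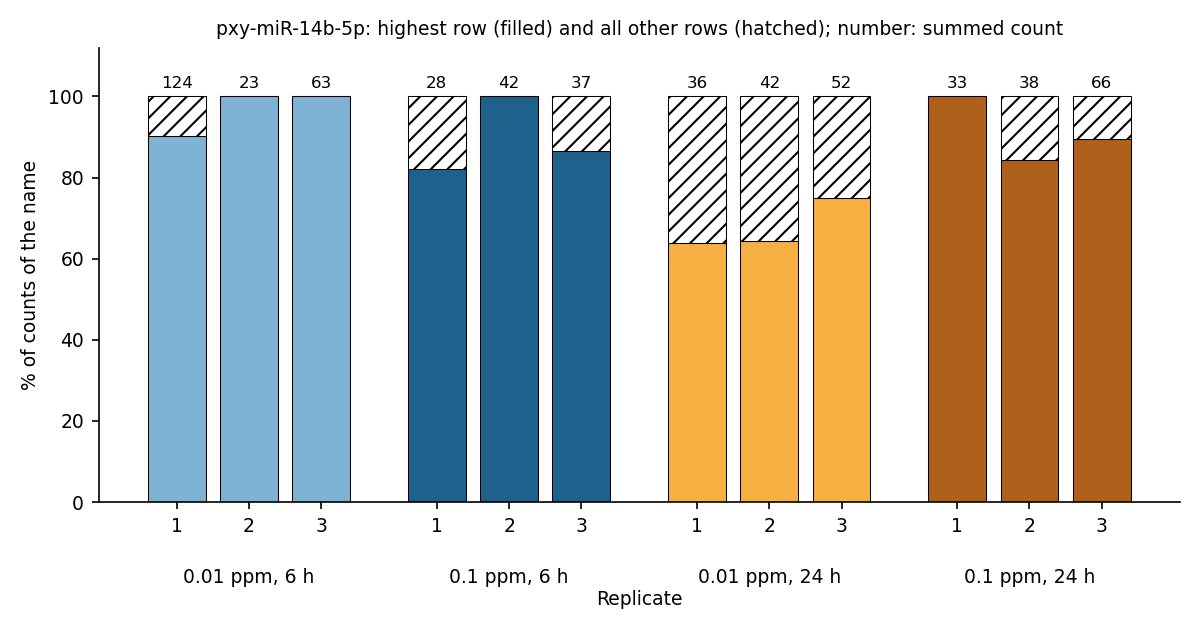
Percent of the pxy-miR-14b-5p counts (vertical axis) in the highest row (filled) and in all further rows (hatched) of each library, grouped by dose and time, with the summed count above each bar. The 3 low-dose libraries at 24 h have 63.9% to 75.0% in the highest row and the other 9 have 82.1% or more.

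Across the 12 libraries the 2 arms of 14b did not move together. The Pearson correlation of log2 CPM was -0.04 between pxy-miR-14b-5p and pxy-mir-14b-3p, -0.66 between pxy-miR-14b-5p and pxy-mir-14a-3p, and 0.17 between the 3p arms. These are descriptions of points that share their libraries, scaling and 4 groups, and any tested name that a library does not list enters as 0. The tested names most like pxy-miR-14b-5p were pxy-miR-9b-5p (r = 0.65), pxy-miR-2a-3p (0.62) and pxy-mir-3338-3p (0.60). Those most like pxy-mir-14a-3p were pxy-mir-316-5p (0.70), pxy-mir-993-3p (0.70) and pxy-miR-2755-3p (0.68). Those most like pxy-mir-14b-3p were pxy-mir-92a-3p (0.89), pxy-miR-8489a-3p (0.79) and pxy-mir-14a-5p (0.74). For pxy-mir-14a-5p, with its 2 unlisted libraries taken as 0, they were pxy-mir-14b-3p (0.74), pxy-mir-92b-3p (0.71) and pxy-mir-92a-3p (0.62).

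Other families known to act in insect hormone pathways (ecdysone, juvenile hormone, insulin) had 11 tested names of 14 listed. Either arm of a family was counted, whichever arm the known role belongs to. Between times at the low dose, where pxy-miR-14b-5p fell, 3 of the 11 rose and none fell, where 19.2% of all tested names passed. These were pxy-mir-278-5p (0.92 ± 0.16), pxy-mir-100-3p (0.53 ± 0.16) and pxy-miR-281-5p (0.37 ± 0.12), with a list median of 0.06 against 0.07 for all names. The other arm of the first, pxy-mir-278-3p, did not pass at the low dose (0.04 ± 0.15, adjusted p = 0.921, edgeR). It did not pass between times at the high dose either (0.11 ± 0.15, adjusted p = 0.796, edgeR). At the high dose 1 rose over time, the timing miRNA pxy-let-7-5p (0.82 ± 0.18), and 1 fell, pxy-mir-278-5p (-0.93 ± 0.16), with medians of -0.04 and -0.01, where 6.85% of all names passed. Between doses none of the 11 passed at 6 h (medians -0.09 and -0.01), where 1.37% of all names passed. At 24 h 1 rose and 2 fell (medians -0.26 and -0.16), where 16.4% passed. Averaged over times 1 rose at the high dose, pxy-let-7-5p (0.61 ± 0.13), and 3 fell, among them pxy-miR-281-5p (-0.29 ± 0.08), with medians of -0.29 and -0.04, where 13.7% passed.

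Families that, like miR-14, act on cell death or fat storage in *Drosophila* had 6 tested names of 9 listed, several of them also in the first list. Between times at the low dose 1 of the 6 rose and at the high dose 1 fell, pxy-mir-278-5p in both cases, where 19.2% and 6.85% of all names passed. None passed between doses at 6 h and 1, again pxy-mir-278-5p, fell at 24 h, where 1.37% and 16.4% of all names passed. The 3p arm of the same family, pxy-mir-278-3p, did not pass in any of these comparisons. Averaged over times 2 fell at the high dose, pxy-mir-278-5p (-0.49 ± 0.11) and pxy-miR-2a-3p (-0.36 ± 0.09), with a list median of -0.33 against -0.04 for all names, of which 13.7% passed. On average over doses none of the 6 passed between times, where 11.0% of all names did. For the difference of the dose effects 1 passed, with a negative value, where 8.22% of all names did.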

How the data were processed

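Whole-larva small RNA was made into TruSeq libraries and read on an Illumina HiSeq, per the labels' protocols. The deposited values are raw read counts per miRNA name, 1 table per library, per the file headers. No source used here names the mapper, the miRNA reference or the filter. Rows of a name were summed.

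Counts of all names in the 12 libraries were fitted with edgeR 4.0.16 (R 4.3.3), with glmQLFit, glmQLFTest and TMM factors, 1 mean per group, and 8 residual degrees of freedom. The filterByExpr minimum was 10 counts and left 73 names, the 4 members included. Benjamini-Hochberg adjustment was over these in each of 7 comparisons, with calls at 0.05. SEs come from the fold change and its F. Ratios within a library were compared by two-sided exact permutation (SciPy 1.17.1) within the other factor. With all 12 libraries its 400 regroupings allow no p below 0.005, and 3 against 3 libraries alone none below 0.1. The arm ratio of 14a had 10 libraries and 100 regroupings, and so a higher floor. Both procedures were tested on simulated data.

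Other settings were DESeq2 1.42.0, scaling by RLE, totals or upper quartile, 2 other filters, the replicate block, the highest row per name, only the libraries compared, an unlisted name set to 5 counts, and each library left out. The labels call the libraries of a group biological replicates, and each same-group pair differed by more than counting noise (chi-square over its degrees of freedom 2.54 to 10.6). Named were the members, the 3 names most like each, and list members past the threshold (at most 4 per list and comparison). Members, lists and tests were chosen with earlier results of these data known.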

Additional observations from a re-analysis of the deposited data

How the results depend on the processing

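The fall of pxy-miR-14b-5p between times at the low dose and averaged over doses passed under each alternative run. Between times at the low dose the number of called members went from 2 to 1 with DESeq2, RLE, library total or upper quartile scaling, no filter, 10 counts in every library, the highest row, only the libraries compared, and summed copies. At 6 h between doses it went from 1 to 0 with DESeq2, RLE or upper quartile scaling, only the libraries compared, summed copies, and the replicate block (-0.93, adjusted p = 0.0695). For the difference of the dose effects it went from 0 to 1 with RLE or library totals, either filter, and the highest row, and averaged over doses between times from 1 to 2 with upper quartile factors. Leaving out 1 library each gave 0 to 1 calls between doses at 6 h, at 24 h and for the difference of the dose effects, and 1 to 2 between times at the low dose and on average.

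None of the sign changes concerned a value that passed. For pxy-mir-14b-3p between doses at 6 h the value was 0.0066 with DESeq2, 0.0082 with RLE, 0.044 with only the libraries compared and 0.16 with upper quartile factors, and -0.10 to 0.063 without 1 library. Between times at the high dose it was 0.027 with 10 counts in every library, 0.0094 with the highest row, 0.082 with library totals and 0.11 with upper quartile factors, and at the low dose -0.028 with library totals. Upper quartile factors gave it 0.10 between doses at 24 h and 0.13 on average. Averaged between times it was -0.048 to 0.038 without 1 library. For pxy-mir-14a-3p between doses, library totals gave -0.080 at 6 h and 0.0043 at 24 h, no filter -0.0086 at 6 h, and upper quartile factors 0.15 at 24 h and 0.18 on average. Without 1 library it was -0.10 to 0.24 at 6 h and -0.14 to 0.060 on average. With library totals its difference of the dose effects was 0.084, and that of pxy-mir-14b-3p 0.11. For pxy-mir-14a-5p it was -0.11 with DESeq2, -0.039 with the replicate block and -0.39 to 0.57 without 1 library, and its time effect was -0.67 to 0.088 at the low and -0.66 to 0.18 at the high dose. That of pxy-miR-14b-5p between doses at 24 h was -0.11 to 0.24. The cause of these changes was not tested.

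Without 1 library the log2 ratio of 14b to 14a differed between doses by -0.16 to 0.074, and the 3p to 5p ratio of 14b between times by 0.76 to 0.99. With the highest row or an unlisted name at 5 counts no ratio changed its call. The 18 same-numbered pairs deviated with a mean r of -0.07 (-0.53 to 0.46, over 0.1 in 5), so the numbers were not taken as pairing. Between doses at 1 time, r was 0.35, 0.46 and -0.05 for replicates 1 to 3 at 6 h. At 24 h it was 0.42, 0.18 and 0.03. Differently numbered pairs of the 2 doses at 6 h ran from -0.54 to 0.35. Pairing of the doses within a time was not tested, and the replicate block, shared by all 4 groups, does not model it. The replicate block changed 1 call, at 6 h, and no other. Depth limits pxy-mir-14a-5p most, at 5 to 19 counts where listed.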

Other observations

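The balance of the 2 copies varied more between libraries at 6 h than at 24 h. The log2 ratio of pxy-mir-14b-3p to pxy-mir-14a-3p after 6 h had an SD of 0.47 among low-dose and 0.27 among high-dose libraries (n = 3 each), and after 24 h of 0.02 and 0.16. It ran from -1.34 in low-dose replicate 2, the shallowest library, to -0.41 in low-dose replicate 1 at 6 h, and from -1.20 to -0.91 in the 6 libraries of 24 h. These spreads were not tested, and total counts were lower at 6 h.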
